A study of Juglans regia with 12 samples.

Results

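The microRNA172 (miR172) family was examined in flower buds of Persian walnut (Juglans regia), in an early-flowering type against a late-flowering one. Its members were the sequences of the deposited miRNA table matched by name to miR172 of another plant. This gave 28 of 931 listed sequences, and the table's own family column placed all 28 in the same family. The members were chosen by name and not by their values, though with earlier results of these data known. The early-flowering libraries came from the precocious walnut (ZS) and carry the stage label Early flower. The late-flowering ones came from the late fruiting walnut (WS) and carry Late flower, so walnut type and bud stage cannot be told apart. Both were grown and sampled in the field at Aksu in Xinjiang, and the labels name no treatment, tree age or genotype beyond the type. There were 3 small RNA libraries of each type among the 12 libraries of the study. Whether the replicates were taken from different trees is not stated, so the p-values rest on a spread between libraries that may be technical.

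miR172 is a conserved plant miRNA that guides Argonaute proteins to mRNAs of AP2-like transcription factors and lowers their output by cleavage and by blocking translation. In Arabidopsis, AP2-like proteins such as TOE1 and SMZ delay flowering, and miR172 accumulates as the plant ages, while miR156, which marks the juvenile phase, declines. The mature strand lies on the 3p arm of the precursor, and the opposite, 5p strand is usually degraded. In Arabidopsis the first base of a small RNA is one of the features that decide which Argonaute protein it enters, and the bases after it, the seed, lead target pairing.

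The 8 sequences with at least 60 counts over the 6 libraries are described singly. The last of them had 79 counts and the next sequence below had 46. They are shown 5′ to 3′ as DNA letters from the deposited table, with the seed (bases 2 to 8) in capitals, because the results below turn on how these few letters differ. The 5 sequences of the 3p arm share the seed GAATCTT:
jre-MIR172-2: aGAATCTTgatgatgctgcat
jre-MIR172-22: aGAATCTTgatgatgctgcag
jre-MIR172-3: aGAATCTTgatgatgctgcgt
jre-MIR172-4: gGAATCTTgatgatgctgcat
jre-MIR172-23: gGAATCTTgatgatgctgcag
The 3 sequences of the 5p arm each have a seed of their own:
jre-MIR172-5: gCAGCATTattaagattcaca
jre-MIR172-13: gTAGCATCatcaagattcaca
jre-MIR172-10: gCAGCATCctcaagattcaca

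With positions counted from 1 at the 5′ end, jre-MIR172-4 differs from jre-MIR172-2 by A1G, and jre-MIR172-23 differs from jre-MIR172-22 by the same A1G. At the other end, jre-MIR172-22 differs from jre-MIR172-2 by T21G, and jre-MIR172-23 differs from jre-MIR172-4 by T21G. These 4 forms thus cover both first bases with both last bases. Whether the counts under a listed sequence include reads with other end bases is not stated. jre-MIR172-3 differs from jre-MIR172-2 by A20G. The arm was read from the matched name for 10 of the 28 members and otherwise from the closer of jre-MIR172-2 and jre-MIR172-5, a rule that gave the named arm for those 10. In all, 19 members lay on the 3p arm and 9 on the 5p arm, and 23 were 21 bases long. When the 3p and 5p forms above were laid against each other as a duplex with overhangs of 2 bases, every one of the 15 combinations had 16 to 17 Watson-Crick pairs over 19 positions. The first base of the 3p form was unpaired in all 15, so A1G altered no pair in these assumed duplexes. Precursors were not available, so which 3p and 5p forms come from the same one is not known.

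As a family, miR172 was higher in early-flowering buds. The summed counts were 1887, 4413 and 4074 in early-flowering libraries and 1918, 1210 and 1570 in late-flowering libraries. Early-flowering libraries held 309697 to 646408 listed miRNA counts and late-flowering libraries 447102 to 614838. Scaled to CPM, the count relative to the TMM-adjusted size of the library, the family stood at 6491, 7208 and 6467 CPM in early-flowering buds and at 3367, 2597 and 2934 CPM in late-flowering buds. The early-flowering values lay above the late-flowering ones without overlap. The mean was 6722 ± 421 CPM in early-flowering buds and 2966 ± 386 CPM in late-flowering buds (SD, n = 3 each). The log2 fold change was 1.18 with an SE of 0.18 and a 95% interval of 0.78 to 1.58 (edgeR quasi-likelihood test, Benjamini-Hochberg adjusted p = 0.00201 over 37 families). Of those 37 families, 8.11% passed the 0.05 threshold as higher in early-flowering buds. The median log2 fold change over all of them was −0.01.

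Within the library, miR172 took 0.609%, 0.722% and 0.630% of the listed miRNA counts in early-flowering buds, against 0.312%, 0.271% and 0.332% in late-flowering buds. Among 345 families it ranked 14 to 15 by abundance in early-flowering libraries and 16 to 18 in late-flowering libraries. It is a moderately abundant family in both bud types. The rise did not rest on 1 library, since the log2 value was 1.04 to 1.28 with any single library left out and passed each time (highest edgeR adjusted p = 0.0350).

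**Figure D1:**
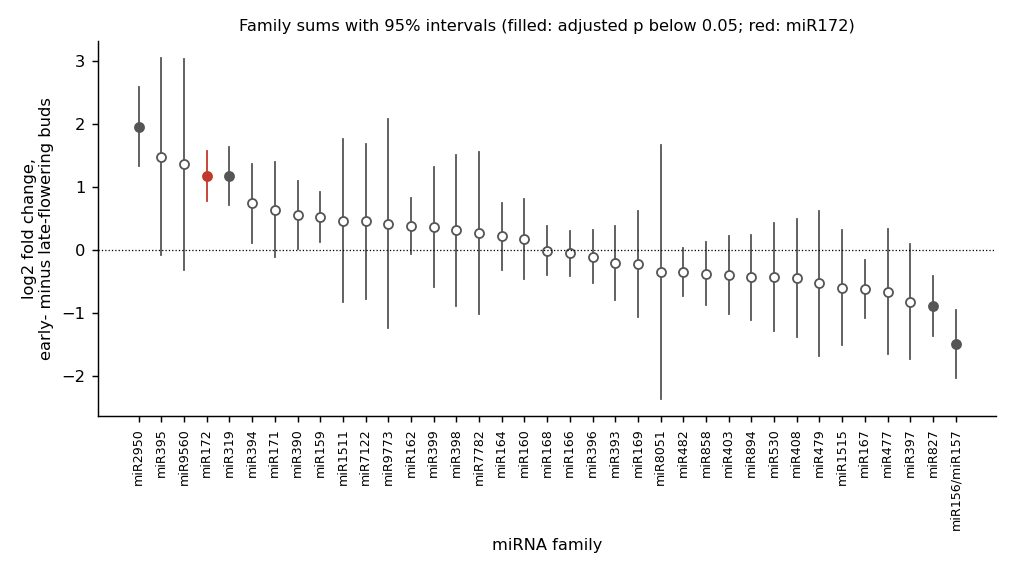
Log2 fold change of each of the 37 tested miRNA families (y axis, early-flowering minus late-flowering buds) with 95% intervals, ordered from highest to lowest. Filled points passed an adjusted p of 0.05. miR172, in red, is at 1.18, the fourth highest value and 1 of the 3 filled points above 0.

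The family's rise was mostly that of 1 sequence. jre-MIR172-2, the most abundant form, accounted for 85.0% of the family's difference in mean CPM. Its mean share of the family was 76.8% in early-flowering and 67.0% in late-flowering buds, so much of that percentage reflects its abundance. Without jre-MIR172-2, the remaining members summed to a log2 fold change of 0.65 that did not pass (edgeR adjusted p = 0.169). This split was chosen after the values were seen. Of the 28 members, 8 had enough counts for the edgeR test, the same 8 as shown above, and 20 were not tested. Of the 8, 3 rose, 0 fell and 5 did not pass, while 4.94% of all 243 tested sequences passed as higher and 6.58% as lower. The 8 had a median log2 fold change of 0.84, against 0.13 over all 243. Among the 8, the 3 that rose are the 3p forms that begin with A. Other 3p forms that begin with A were too rare to be tested. Merging near-identical sequences joined the rarer of the 3 to jre-MIR172-2 and left 1 miR172 call. The 3 are thus not taken as independent observations, and the median above counts such related forms separately.

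jre-MIR172-2 had 4761, 5746 and 5000 CPM in early-flowering buds and 2071, 1843 and 2013 CPM in late-flowering buds. The lowest early-flowering library was more than 2 times the highest late-flowering one. Its log2 fold change was 1.39, with an SE of 0.20 (edgeR adjusted p = 0.00536). The fold change varied little, from 1.24 to 1.42 with single libraries left out. The call did not hold without early-flowering replicate 2, late-flowering replicate 2 or late-flowering replicate 3, where the edgeR adjusted p was 0.0512, 0.0664 and 0.0555.

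jre-MIR172-22, which shares the first base A and ends in G, had 402, 284 and 270 CPM in early-flowering buds and 104, 66.5 and 80.4 CPM in late-flowering buds. The groups did not overlap, and the log2 fold change of 1.92 (SE 0.30, edgeR adjusted p = 0.00572) was the highest of the 8. Its call was lost in 1 of 12 alternatives, without late-flowering replicate 3 (edgeR adjusted p = 0.0555).

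jre-MIR172-3, also with the first base A, had 189, 260 and 170 CPM in early-flowering buds and 102, 45.1 and 74.8 CPM in late-flowering buds. The groups again did not overlap, with a log2 fold change of 1.47 (SE 0.36, edgeR adjusted p = 0.0322). This call was lost in 4 of 12 alternatives. The edgeR adjusted p was 0.1001 when early-flowering replicate 2 was left out, 0.1003 when late-flowering replicate 2 was, 0.119 when late-flowering replicate 3 was, and 0.0539 with the replicate number as a block.

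The 3p forms that begin with G, jre-MIR172-4 and jre-MIR172-23, had lower fold changes, and neither passed. jre-MIR172-4, the second most abundant form, had 612, 385 and 410 CPM in early-flowering buds and 676, 348 and 435 CPM in late-flowering buds, 2 sets of values that overlap throughout. Its log2 fold change was −0.06, with a 95% interval of −0.82 to 0.71 (edgeR adjusted p = 0.907). A change of either sign within that interval cannot be told from no change here. jre-MIR172-23 had 320, 305 and 319 CPM in early-flowering buds and 232, 174 and 222 CPM in late-flowering buds. The groups did not overlap, but the log2 fold change of 0.59 (95% interval 0.02 to 1.15) did not pass after adjustment (edgeR adjusted p = 0.132).

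The 5p strands, the passenger side of the precursor, were rarer. jre-MIR172-5 had 75.7, 83.3 and 146 CPM in early-flowering buds and 87.8, 40.8 and 29.9 CPM in late-flowering buds, and late-flowering replicate 1 lay within the early-flowering range. Its log2 fold change was 0.95 (95% interval −0.11 to 2.004, edgeR adjusted p = 0.174). jre-MIR172-13 averaged 42.8 ± 2.75 CPM in early-flowering buds and 25.5 ± 9.16 CPM in late-flowering buds (SD, n = 3 each; log2 0.72, edgeR adjusted p = 0.204). jre-MIR172-10 averaged 29.9 ± 15.7 CPM in early-flowering buds and 20.9 ± 19.6 CPM in late-flowering buds (log2 0.58, edgeR adjusted p = 0.560). Its counts were 7, 11 and 30 in early-flowering libraries and 8, 20 and 3 in late-flowering libraries, where 3 counts, taken as the floor, stand for 4.76 to 10.3 CPM. All 3 sequences begin with G, as do jre-MIR172-4 and jre-MIR172-23. The levels of jre-MIR172-13 did not overlap between the bud types. Such levels were found for 5 of the 8 sequences, jre-MIR172-2, jre-MIR172-22, jre-MIR172-3, jre-MIR172-23 and jre-MIR172-13, and for 37.4% of all 243 tested sequences.

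**Figure D2:**
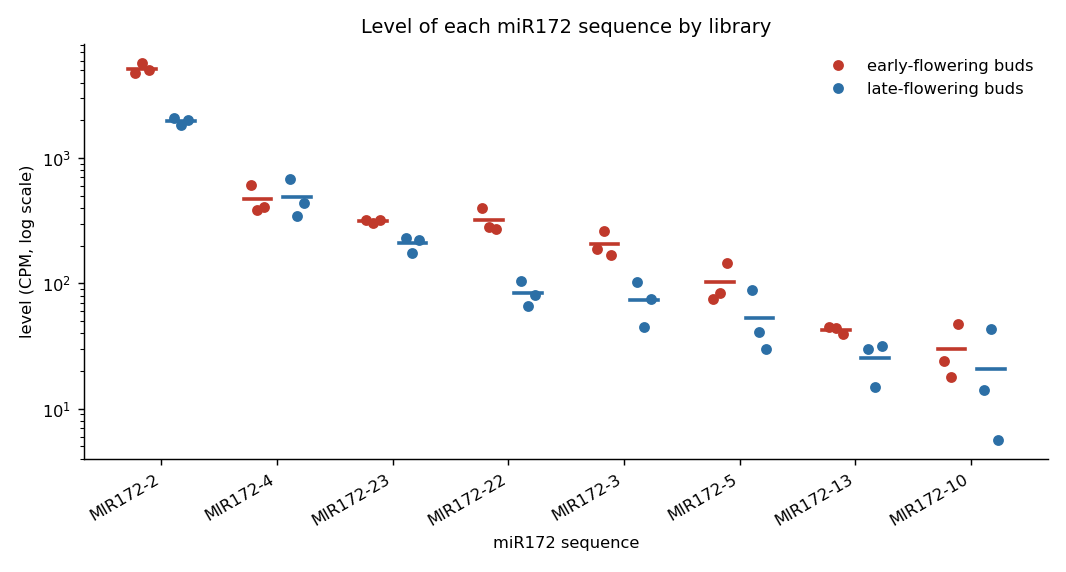
Level of each of the 8 miR172 sequences (y axis, CPM on a log scale) in every library, with 3 early-flowering (red, left) and 3 late-flowering (blue, right) libraries per sequence and a bar at the mean. MIR172-2, MIR172-22, MIR172-3, MIR172-23 and MIR172-13 show no overlap between the bud types, with means of 5169 CPM in early-flowering and 1976 CPM in late-flowering buds for MIR172-2, whereas the points of MIR172-4 overlap around means of 469 CPM in early-flowering and 486 CPM in late-flowering buds.

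The levels fell into the following order. In early-flowering buds jre-MIR172-2 was followed by jre-MIR172-4 (469 ± 125 CPM), jre-MIR172-22 (319 ± 72.8 CPM), jre-MIR172-23 (315 ± 8.12 CPM) and jre-MIR172-3 (206 ± 47.3 CPM). The ranges of jre-MIR172-4 and jre-MIR172-22 overlapped there, as did those of jre-MIR172-22 and jre-MIR172-23. In late-flowering buds jre-MIR172-4 (486 ± 170 CPM) was followed by jre-MIR172-23 (209 ± 31.1 CPM), then jre-MIR172-22 (83.5 ± 18.7 CPM) and jre-MIR172-3 (73.9 ± 28.4 CPM). There jre-MIR172-23 lay above jre-MIR172-22 in all 3 libraries without overlap, and jre-MIR172-22 and jre-MIR172-3 overlapped. jre-MIR172-5, jre-MIR172-13 and jre-MIR172-10 were the lowest 3 in both bud types.

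**Figure D3:**
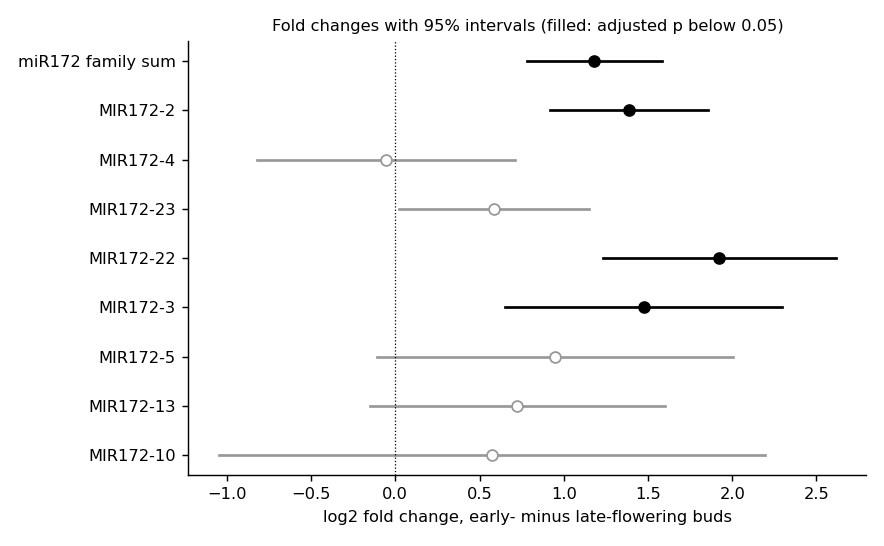
Log2 fold change (x axis, early-flowering minus late-flowering buds) with 95% intervals for the family sum and the 8 sequences (y axis). Filled points passed an edgeR adjusted p of 0.05. They are the family sum at 1.18, MIR172-2 at 1.39, MIR172-22 at 1.92 and MIR172-3 at 1.47, while the interval of MIR172-4 spans 0.

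The share of each form inside the family needs no scaling between libraries and was compared next. jre-MIR172-2 made up 73.3%, 79.7% and 77.3% of the miR172 counts in early-flowering libraries and 61.5%, 71.0% and 68.6% in late-flowering libraries. jre-MIR172-4 made up 9.43%, 5.35% and 6.33% in early-flowering libraries and 20.1%, 13.4% and 14.8% in late-flowering libraries. The means differed by 9.76 percentage points for jre-MIR172-2 and by −9.06 percentage points for jre-MIR172-4. Exact Clopper-Pearson 95% intervals of these single-library shares reached at most 2.60 points to either side for jre-MIR172-2 and 1.96 points for jre-MIR172-4, for counting error only.

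jre-MIR172-23, the other 3p form that begins with G, held 4.93%, 4.24% and 4.93% of the family in early-flowering libraries and 6.88%, 6.69% and 7.58% in late-flowering libraries. jre-MIR172-22 held 6.20%, 3.94% and 4.17% in early-flowering libraries and 3.08%, 2.56% and 2.74% in late-flowering libraries. The shares of these 4 forms did not overlap between the bud types. Shares depend on each other, since a higher share of jre-MIR172-2 leaves less for the rest. Of all listed counts, jre-MIR172-4 held a mean of 0.0453% in early-flowering and 0.0494% in late-flowering buds, with overlap. There jre-MIR172-23 was higher in early-flowering buds, at 0.0306% against 0.0216%, without overlap. Over the whole table, 29.6% of 233 sequences in families with at least 2 tested forms had shares without overlap, so 4 of 8 is read against that. The shares of jre-MIR172-3 (3.05% ± 0.502 in early-flowering and 2.44% ± 0.651 in late-flowering buds), jre-MIR172-5 (1.53% ± 0.634 in early-flowering and 1.73% ± 0.806 in late-flowering buds), jre-MIR172-13 and jre-MIR172-10 overlapped (SD, n = 3 each).

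The change in shares did not pass the test across the table. In the edgeR test of form usage, which sets each form against its whole family, itself included, 0 of the 8 forms passed, as did 0.0% of all 233 forms. jre-MIR172-2 is most of that whole, so its usage of 0.20 (edgeR adjusted p = 0.948) cannot show how it differs from the rest. At an unadjusted p under 0.05 there were 26 of the 233, and jre-MIR172-4 was the 1 of them in miR172. Its usage relative to the family was −1.24 on the log2 scale (edgeR adjusted p = 0.199), and without early-flowering replicate 1, the library with the fewest counts, it passed at −1.48 (edgeR adjusted p = 0.0276). It did not pass with any other library left out (edgeR adjusted p of 0.231 to 0.701), with no filter (0.337) or with the replicate number as a block (0.235). The test of the family's composition as a whole gave an edgeR adjusted p of 0.0616, while 29.6% of 27 families passed it. The composition passed without early-flowering replicate 3 (edgeR adjusted p = 0.0357). It did not pass with any other library left out (0.0545 to 0.313), with the block (0.195) or with no filter (0.343). Exact two-sided permutation tests gave p = 0.1 for the shares of jre-MIR172-2, jre-MIR172-4, jre-MIR172-23 and jre-MIR172-22 (0.2 when adjusted over 8 forms), and 0.1 is the smallest value that 3 against 3 libraries allow.

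**Figure D4:**
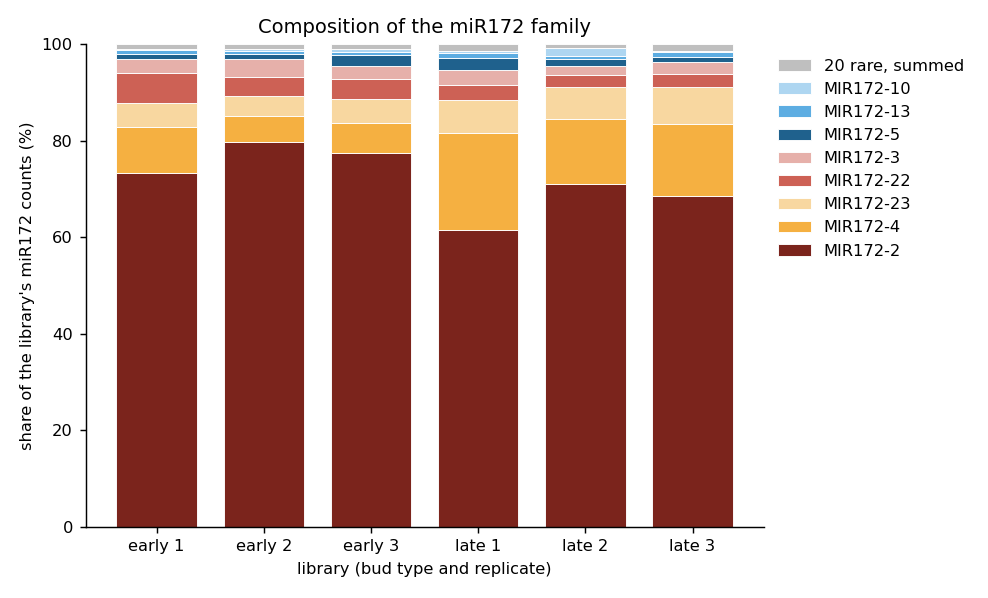
Share of each form in the miR172 counts of a library (y axis, percent) for the 3 early-flowering libraries on the left and the 3 late-flowering libraries on the right (x axis), with the 20 sequences under 60 counts summed in grey. The bottom segment, MIR172-2, is at 73.3% to 79.7% in early-flowering and 61.5% to 71.0% in late-flowering libraries, and the orange segment above it, MIR172-4, is at 5.35% to 9.43% in early-flowering and 13.4% to 20.1% in late-flowering libraries.

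Grouping by first base was chosen after these values were seen and is given as a description. The 3p sequences beginning with A together held 85.1% ± 2.48 of the family in early-flowering buds and 72.9% ± 3.97 in late-flowering buds (SD, n = 3 each). Those beginning with G held 11.8% ± 2.38 in early-flowering buds and 23.3% ± 3.62 in late-flowering buds. The ratio can be read in 2 pairs of forms that differ by A1G alone. The pairs are not independent, since they share the same 6 libraries and jre-MIR172-22 followed jre-MIR172-2 over them (Pearson's r of log2 CPM 0.96). The count of jre-MIR172-2 was 7.78, 14.9 and 12.2 times that of jre-MIR172-4 in early-flowering libraries and 3.06, 5.30 and 4.62 times in late-flowering libraries. The count of jre-MIR172-22 was 1.26, 0.930 and 0.846 times that of jre-MIR172-23 in early-flowering libraries and 0.447, 0.383 and 0.361 times in late-flowering libraries.

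Both ratios were higher in every early-flowering library than in any late-flowering library. Of 10 pairs of tested forms in the table that differ in the first base alone, 40.0% had ratios without overlap between the bud types, these 2 among them. The 10 pairs were not matched for how far their forms differ in abundance. From the mean log2 ratios, the difference was 2.66-fold for the forms ending in T and 2.52-fold for the forms ending in G. Leaving out single libraries gave log2 differences of 1.18 to 1.68 for the first pair and 1.17 to 1.45 for the second, with 1.41 and 1.33 over all libraries. The exact two-sided permutation p was 0.1 for each pair, the smallest possible with 3 libraries of each type (n = 3 each). The pairs were chosen after the values were seen and share their libraries, so these p-values are not separate evidence.

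**Figure D5:**
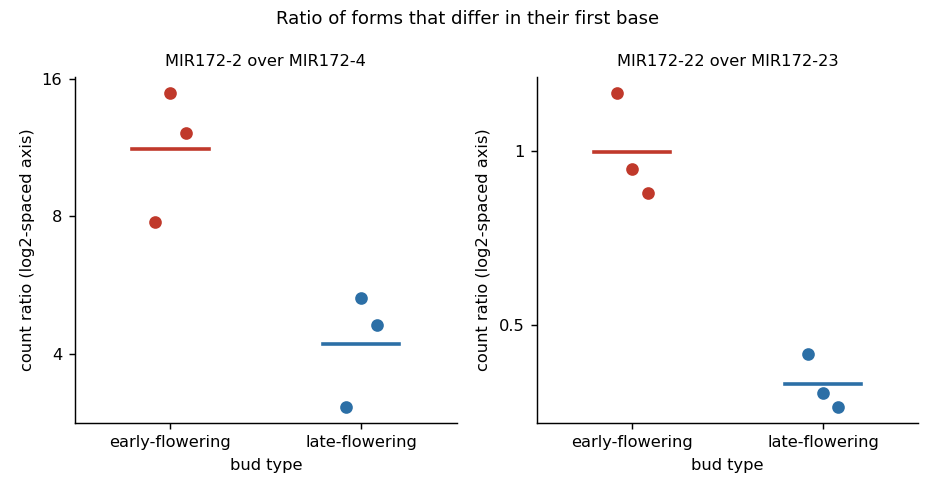
Count ratio within each library (y axes, log2-spaced and on different scales) of MIR172-2 over MIR172-4 on the left and of MIR172-22 over MIR172-23 on the right, for early-flowering (red) and late-flowering (blue) buds. Points are libraries and bars are means of the log2 ratios. In both panels all early-flowering points lie above all late-flowering points, from 7.78 against at most 5.30 on the left and from 0.846 against at most 0.447 on the right.

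The same comparison for the last base gave smaller differences, though first and last base were not tested against each other. Among forms beginning with A, jre-MIR172-22 over jre-MIR172-2 was 0.0845, 0.0495 and 0.0540 in early-flowering libraries and 0.05, 0.0361 and 0.0399 in late-flowering libraries, and the values overlapped. Among 3p forms beginning with G, jre-MIR172-23 over jre-MIR172-4 was 0.522, 0.792 and 0.779 in early-flowering libraries and 0.343, 0.500 and 0.511 in late-flowering libraries, without overlap. From the mean log2 ratios the differences were 1.46-fold and 1.54-fold. The ratio of jre-MIR172-3 to jre-MIR172-2 overlapped between the bud types, at 0.0396 ± 0.0056 in early-flowering and 0.0369 ± 0.0124 in late-flowering buds (SD, n = 3 each).

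The shares of the arms overlapped between the bud types. The 5p sequences held 2.60%, 2.38% and 4.03% of the family in early-flowering libraries and 4.33%, 4.21% and 2.68% in late-flowering libraries. The exact two-sided permutation p was 0.2 (n = 3 each). Sequences with the seed GAATCTT held 96.6% ± 0.849 in early-flowering and 95.8% ± 0.821 in late-flowering buds. Nearly all miR172 counts in both bud types thus carried 1 seed, and the forms whose shares separated the types differ outside it.

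The 20 sequences under 60 counts, 14 of the 3p and 6 of the 5p arm, had 1 to 46 counts each (median 3) and 170 of the 15072 counts of the family. Their sum was 18, 50 and 41 counts in early-flowering libraries and 29, 10 and 22 in late-flowering libraries. This was 0.954%, 1.13% and 1.01% of the family in early-flowering libraries and 1.51%, 0.826% and 1.40% in late-flowering libraries, with overlap (exact two-sided permutation p = 0.4, n = 3 each). Single substitutions of jre-MIR172-2 among them were rarer than those described singly. Only sequences matched to a named miRNA are listed, so these few do not measure how often reading errors arise. Whether the forms described singly include misread copies of jre-MIR172-2 was not tested. A1T in jre-MIR172-16, T7A in jre-MIR172-19, T7C in jre-MIR172-25 and G18A in jre-MIR172-27 had 0.0269% to 0.224% of the counts of jre-MIR172-2 over all libraries. By comparison, jre-MIR172-3 stood at 3.96% ± 0.561 of it in early-flowering and 3.69% ± 1.24 in late-flowering buds (SD, n = 3 each). jre-MIR172-22 stood at 6.27% ± 1.91 in early-flowering and 4.2% ± 0.719 in late-flowering buds, and jre-MIR172-4 at 9.25% ± 3.21 in early-flowering and 24.4% ± 7.28 in late-flowering buds.

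The members also differed in how closely they followed jre-MIR172-2 over the 6 libraries, which share their depth and scaling. Pearson's r of log2 CPM was 0.96 for jre-MIR172-22, 0.93 for jre-MIR172-3, 0.93 for jre-MIR172-23 and −0.04 for jre-MIR172-4. Outside the family, the sequences most like jre-MIR172-2 among 233 with at least 60 counts were jre-MIR159-14 (r = 0.998), jre-MIR159-3 (0.978), jre-MIR159-10 (0.962), jre-MIR171_2-2 (0.961) and jre-MIR319-4 (0.958). By its matched name, jre-MIR159-3 belongs to miR319. Among 37 families with that many counts, those most like the miR172 sum were miR2950 (r = 0.947), miR319 (0.916), miR159 (0.883), miR390 (0.863) and miR394 (0.781). With 2 groups of 3 libraries these values mostly follow the difference between the bud types, and no p is given.

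Of other miRNA families known to act on flowering time, miR156/miR157, which in Arabidopsis lowers SPL activators of miR172, fell, and miR319, which regulates TCP genes, rose. miR159, which regulates GAMYB genes, miR390, the trigger of tasiRNAs against ARF genes, and miR399, of phosphate signalling, did not pass. Of the 5 families listed, 1 thus rose and 1 fell. Of all 37 families, 13.5% passed in either direction, 8.11% as higher and 5.41% as lower. Among their 63 tested sequences, 5 rose and 11 fell, where 4.94% of all 243 passed as higher and 6.58% as lower. The 11 that fell all belong to miR156/miR157, and of the 5 that rose 3 belong to miR319 and 2 to miR159, whose family sum did not pass. jre-MIR156-5, the most abundant miR156 sequence, had 5525, 3878 and 4583 CPM in early-flowering buds and 11930, 16604 and 21117 CPM in late-flowering buds (log2 fold change −1.83, SE 0.27, edgeR adjusted p = 0.00536). In early-flowering buds it thus stood close to jre-MIR172-2, with overlapping ranges, whereas in late-flowering buds it lay far above it in every library.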

How the data were processed

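The deposited miRNA table, made by the authors, holds raw counts per mature sequence and library. Each sequence stands under the name of a miRNA it was matched to. It is given there as a representative sequence, and whether its counts include reads that differ from it is not stated. The mapping, naming and small RNA library methods were not given in the sources used here, and totals cover listed miRNAs only. Library columns were matched to samples by library code and title. The deposited mRNA table was not used, since its gene IDs carry no names. Sequences, family sums (number in the matched name, miR156 and miR157 joined) and form usage inside families were tested on the whole table in edgeR 4.0.16 (R 4.3.3). The fits used TMM scaling, filterByExpr with a minimum count of 10, robust quasi-likelihood fits with bud type as the only term, and diffSpliceDGE with families in place of genes. Benjamini-Hochberg adjusted p-values under 0.05 were called. SEs were derived from the F statistic. CPM, shares and ratios were computed from the counts. Whether molecular identifiers were used is not known. PCR reads without them are not independent molecules, so intervals and floors are taken to cover counting error only. The code was tested on simulated data. No pair of libraries was identical (0 pairs). Alternatives covered scaling, filter, DESeq2 1.42.0, a replicate block, left-out libraries, merging of near-identical sequences and other family definitions. All miR172 sequences with at least 60 counts are named, and the most similar features are the 5 highest Pearson r of log2(CPM + 1). Members, lists and rules were chosen with earlier results of these data known.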

Additional observations from a re-analysis of the deposited data

How the results depend on the processing

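The miR172 family sum kept its direction in 19 of 19 alternatives and its call in 15. It did not pass with only sequences named as 3p (log2 0.27, a set that lacks jre-MIR172-2, whose matched name gives no arm), only those named as 5p (0.85), 5p arms assigned by sequence (0.85) or without jre-MIR172-2 (0.65). The last 2 were added after seeing the data. The number of miR172 sequences that passed was 3, with 0 to 3 over left-out libraries and 1 after merging near-identical sequences, which joins jre-MIR172-22 and jre-MIR172-3 to jre-MIR172-2. The number of forms past the usage test was 0 to 1 and the composition p 0.0357 to 0.313 over left-out libraries. Among forms that did not pass, the log2 fold change of jre-MIR172-4 ranged from −0.305 to 0.255 over left-out libraries, turning positive when early-flowering replicate 2 (0.02295) or late-flowering replicate 1 (0.2545) was left out. That of jre-MIR172-10 ranged from −0.175 to 1.60 and was negative without early-flowering replicate 3. Relative usage ranged from −0.603 to 0.253 for jre-MIR172-5, positive when early-flowering replicate 2 (0.008363) or replicate 1 of the late-flowering buds (0.2532) was left out, and from −1.22 to 0.542 for jre-MIR172-10, positive without late-flowering replicate 2. The cause was not tested. Over the table, left-out libraries gave 2 to 54 sequences and 4 to 19 families past the threshold, against 28 and 5. In the flowering list they gave 1 to 3 families higher, 0 to 8 sequences higher and 2 to 13 lower. There, 2 families were higher with DESeq2 size factors, with total counts and when the most abundant sequence was kept out of TMM, and 8 sequences were higher without a filter, 2 with the replicate block and 1 after merging. The replicate block gave 17 sequences over the table, and the miR172 family kept its call under it. Deviations from the group means correlated at −0.0912, −0.0871 and −0.303 between same-numbered libraries and at −0.131 to 0.298 between the others. With 3 libraries per type, and deviations that sum to 0 in each type, this cannot show whether the numbers pair the samples. The share of the 20 rare sequences differed by −0.426 to −0.0828 points over left-out libraries. Depth limits the 20 rare sequences, which could not be tested singly, and the 3 tested 5p forms had 3 to 92 counts per library.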

Other observations

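Pairs of forms that differ only in the first base were looked for in the whole table after the miR172 values were seen. There were 10 such pairs of tested sequences with counts in every library, from 6 families. The 2 miR172 pairs had the largest differences in log2 ratio between the bud types of these 10, at 1.41 for jre-MIR172-2 over jre-MIR172-4 and −1.33 for jre-MIR172-23 over jre-MIR172-22. The pairs are unlike in balance, which limits this ranking. In early-flowering buds the mean log2 ratio was 3.49 and 0.0048 for these 2. It was 2.05 for jre-MIR159-40 over jre-MIR159-19, 3.58 for jre-MIR166-29 over jre-MIR166-12, and 6.77 to 9.26 for the rest. Of the 8 pairs in other families, 2 did not overlap between the bud types, jre-MIR166-29 over jre-MIR166-12 (T1C, 1.08) and jre-MIR398-5 over jre-MIR398_2-4 (T1C, −0.61), and over all 10 pairs 40.0% did not overlap.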
